A study of Homo sapiens with 2 samples.

Results

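The family of miR-103 and miR-107 was examined in exosomes of 2 human liver cancer cell lines. The family was taken as every mature miRNA of the deposited count table named miR-103a, miR-103b or miR-107, without regard to arm or hairpin copy. This gave 4 of the 793 distinct miRNAs listed: the guide arms miR-103a-3p and miR-107 and the minor arms miR-103a-1-5p and miR-103a-2-5p. No entry is named miR-103b, so it was not analysed here. The cells were MHCC97H, derived from hepatocellular carcinoma and known for frequent metastasis, and HepG2, a liver tumor line labelled as hepatocellular carcinoma too. Both lines were grown without any labelled treatment in medium whose serum was freed of exosomes, and small RNA was sequenced from vesicles pelleted out of that medium. Each line gave 1 library, so differences between lines carry no replicate check and no test. Effects of the line and of its preparation cannot be told apart. Fewer vesicles and less of a miRNA per vesicle cannot be told apart either.

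There were 304457 miRNA reads from MHCC97H exosomes and 22831 from HepG2 exosomes. Levels are given in CPM, reads scaled to a common total, and a single read equals 3.28 CPM in MHCC97H against 43.8 CPM in HepG2. Where HepG2 had 0 reads, the floor used is 3 reads, or 131 CPM, a 1-sided limit, and the exact 2-sided interval reaches 162 CPM. All intervals below are exact 95% intervals and cover counting error only. Of the fixed hepatocyte markers, miR-122-5p was present in both libraries (298 reads in MHCC97H and 24 in HepG2), and miR-885-5p had no MHCC97H read.

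Mammalian miR-103 and miR-107 are paralogs carried in introns of the pantothenate kinase genes, whose enzymes start the synthesis of coenzyme A. In mice they are known to lower insulin sensitivity in liver and fat, in part by repressing caveolin-1. Human miR-103 and miR-107 also repress DICER1, the enzyme that matures miRNAs, and human miR-107 is induced by p53. A miRNA binds its targets mainly through its seed, bases 2 to 8 from the 5′ end.

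The sequences of all 4 members were matched by name in RefSeq (GRCh38.p14). They are printed 5′ to 3′ with the seed in capitals because the comparison turns on how alike they are.
miR-103a-3p: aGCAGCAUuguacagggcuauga
miR-107: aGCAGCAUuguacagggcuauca
miR-103a-1-5p: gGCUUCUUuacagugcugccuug
miR-103a-2-5p: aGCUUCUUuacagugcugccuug
The 2 guides have the same seed and the same first 21 of 23 bases. From miR-103a-3p to miR-107 they differ by G22C alone, counted from the 5′ end, so a read that ends before that base cannot be assigned to either. The 2 minor arms have a run of 22 of 23 bases in common. No other human miRNA of the RefSeq table has the seed of the guides. miR-103b, annotated on the opposite strand, is the exact reverse complement of miR-103a-3p.

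The hairpins show where these arms come from, with the guide in capitals.
MIR103A1: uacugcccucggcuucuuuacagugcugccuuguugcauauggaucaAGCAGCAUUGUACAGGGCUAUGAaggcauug
MIR103A2: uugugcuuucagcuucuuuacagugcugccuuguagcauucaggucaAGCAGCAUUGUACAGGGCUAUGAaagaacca
MIR107: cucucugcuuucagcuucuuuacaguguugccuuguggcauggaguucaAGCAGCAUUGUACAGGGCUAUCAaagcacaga
MIR103A1 lies at chr5:168560896-168560973 on the minus strand (GRCh38), in an intron of PANK3. MIR103A2 lies at chr20:3917494-3917571 on the plus strand, in an intron of PANK2. MIR107 lies at chr10:89592747-89592827 on the minus strand, in an intron of PANK1. In GENCODE release 29 each hairpin lies on its host's strand and overlaps no exon of it. In the principal transcript of each host (PANK3-201, PANK2-201 and PANK1-203) the hairpin sits in intron 5 of 6. The upstream exon ends 419 bases before MIR103A1, 443 before MIR103A2 and 369 before MIR107. Aligned end to end, MIR103A2 and MIR107 were identical at 84.0% of aligned positions, MIR103A1 and MIR103A2 at 80.8%, and MIR103A1 and MIR107 at 77.8%.

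miR-103a-3p was by far the most abundant member in both libraries and differed little between them. It had 2193 reads in MHCC97H, or 7203 CPM (6905 to 7511), and 119 reads in HepG2, or 5212 CPM (4318 to 6237). It ranked 30 among 763 detected miRNAs in MHCC97H and 27 among 362 in HepG2, so its place near the top was alike. Its neighbors in MHCC97H, miR-423-3p with 2195 reads and miR-106b-3p with 2130, were level with it within counting error. In HepG2 the same held for let-7i-5p with 121 reads and miR-320a-3p with 111. The CPM ratio of MHCC97H over HepG2 was 1.38 (1.15 to 1.68), under the 2-fold size used here for a call, and it fell below 1 under median centring and under totals without the most abundant miRNAs. The table lists the name in 2 entries, with 2193 and 2189 reads in MHCC97H and 119 in each for HepG2, and the highest count was used once. The mature sequence is the same in both hairpins, which agree for only 3 bases before it and 1 base after it. Reads of the mature sequence alone therefore cannot be divided between the PANK3 and the PANK2 copy, and the counts do not show where reads end.

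miR-107, the copy from PANK1, was higher in MHCC97H. It had 257 reads there, or 844 CPM (744 to 954), and 5 reads in HepG2, or 219 CPM (71.1 to 511). At its MHCC97H level, 19.3 reads would have been counted at HepG2 depth. The ratio was 3.85 (1.63 to 12.0), a difference of at least 2-fold whose interval excludes 1 except after median centring. It ranked 119 in MHCC97H, level with miR-125a-5p at the same 257 reads, and 149 in HepG2, where 16 miRNAs had 5 reads.

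Of the 4 members, 3 reached 10 CPM in at least 1 library, the level required for a comparison. By size alone 1 of them, miR-107, was at least 2-fold higher in MHCC97H and 1, miR-103a-2-5p, in HepG2, where 51.7% and 25.2% of all miRNAs compared were. By size and interval together, which is what a call means here, miR-107 was called higher in MHCC97H and no member in HepG2. Among all 543 miRNAs that reached 10 CPM, 20.4% were called higher in MHCC97H and 9.02% in HepG2. Among the 137 that averaged 500 CPM or more, as both guides did, the shares were 49.6% and 18.2%. miR-107 entered this set through MHCC97H, since its mean of 532 CPM came from 844 CPM there and 219 CPM (5 reads) in HepG2. Its place in the set is therefore not independent of its ratio. A call in the direction of miR-107 was common in this set. In that set, 45 miRNAs had a higher ratio than miR-107 and 91 a lower one. For miR-103a-3p, 80 had a higher ratio and 56 a lower one.

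**Figure D1:**
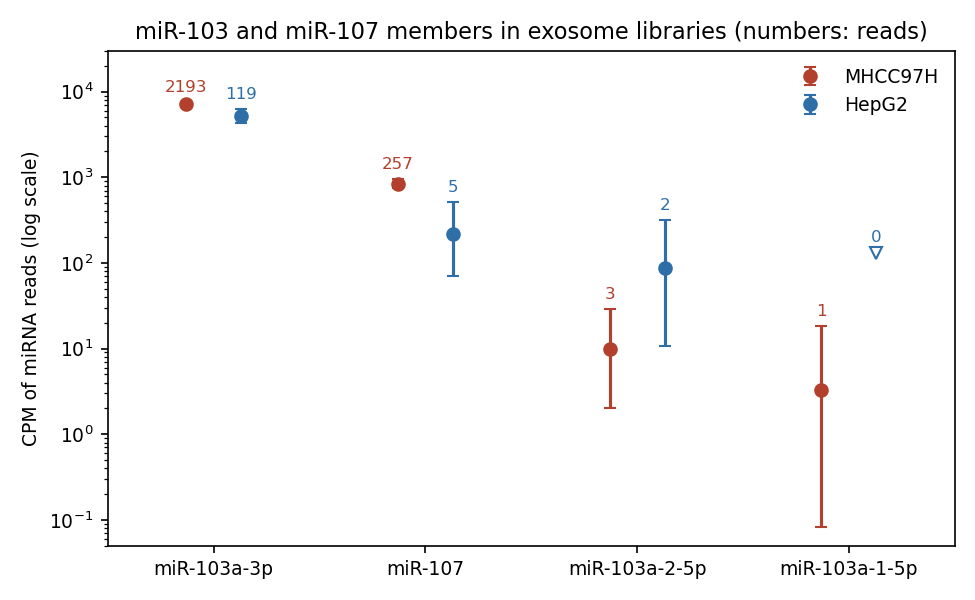
Level of each member in CPM (log axis) in MHCC97H and HepG2 exosomes, 1 library each; bars are exact 95% Poisson intervals, numbers are reads, and the open triangle is the floor of 3 reads (131 CPM) for a count of 0. The intervals of miR-107 do not overlap (744 to 954 CPM in MHCC97H, 71.1 to 511 CPM in HepG2), while those of miR-103a-2-5p do.

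**Figure D2:**
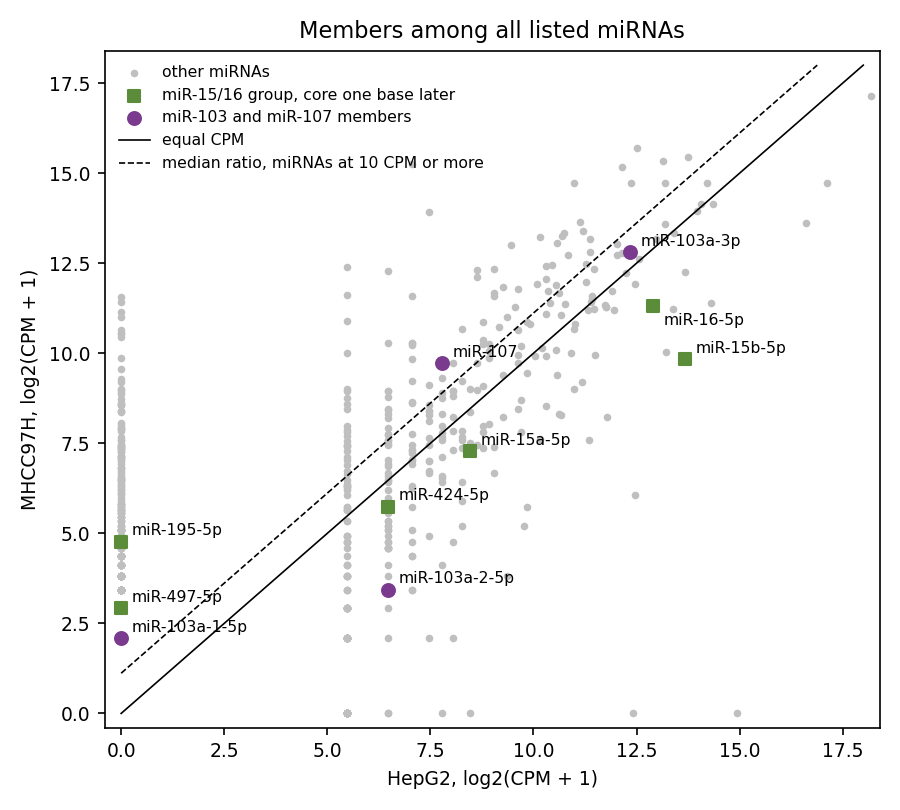
log2(CPM + 1) of the 793 listed miRNAs, MHCC97H on the vertical and HepG2 on the horizontal axis, with the miR-103 and miR-107 members and the related miR-15/16 group marked. miR-103a-3p lies between the line of equal CPM and the median ratio of the miRNAs at 10 CPM or more, and miR-107 lies above both.

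The balance of the guides within a library does not depend on how the libraries are scaled. miR-107 made up 10.5% of the reads of both guides in MHCC97H (257 of 2450, 9.30 to 11.8%) and 4.03% in HepG2 (5 of 124, 1.32 to 9.16%). miR-103a-3p thus outnumbered miR-107 by 8.53 to 1 in MHCC97H and by 23.8 to 1 in HepG2. The odds of miR-107 against miR-103a-3p were 2.79 times higher in MHCC97H (1.15 to 8.83). At the MHCC97H share, 13.01 of the 124 HepG2 reads would have been miR-107, where 5 were counted. The result rests on those 5 reads and on the base at position 22, and the mismatch setting of the authors' alignment is not given in the sources used here. With the repeated entries of miR-103a-3p summed, the shares of miR-107 shrink in both libraries and the odds ratio was again 2.79 (1.16 to 8.75).

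Both guides together, which present 1 seed to their targets, had 8047 CPM in MHCC97H and 5431 CPM in HepG2. They took 0.805% of miRNA reads in MHCC97H and 0.543% in HepG2. The ratio of the sums was 1.48 (1.24 to 1.79), close to that of miR-103a-3p, and like it fell below 1 under median centring (0.68) and without the most abundant miRNAs (0.93).

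**Figure D3:**
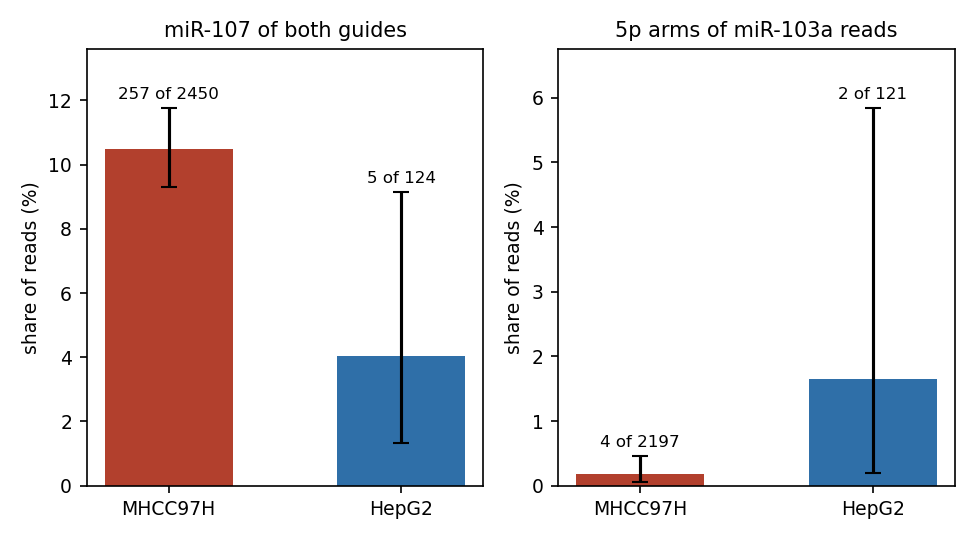
Left, miR-107 as a share of the reads of miR-103a-3p plus miR-107; right, the 5p arms as a share of all miR-103a reads; MHCC97H and HepG2, 1 library each, with exact 95% binomial intervals and the reads above the bars. The miR-107 share was 10.5% in MHCC97H and 4.03% in HepG2, with intervals that do not overlap, and the intervals of the 5p share overlap.

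The minor arms, which are mostly degraded when the guide is loaded, were close to the limit of detection. miR-103a-2-5p had 3 reads in MHCC97H, or 9.85 CPM (2.03 to 28.8), and 2 reads in HepG2, or 87.6 CPM (10.6 to 316). It reached 10 CPM only through HepG2, where 1 read already exceeds that level. The ratio was 0.11 with an interval of 0.0129 to 1.35, so with library totals no difference was detectable at this depth. On the same 5 reads the interval lay below 1, and the arm was called higher in HepG2, after median centring (0.052, 0.0059 to 0.621) and without the most abundant miRNAs (0.071, 0.0081 to 0.849). miR-103a-1-5p had 1 read in MHCC97H, or 3.28 CPM, and none in HepG2, where 0.0750 reads would have been counted at its MHCC97H level. In HepG2 the intervals of miR-107 and miR-103a-2-5p overlapped, and in MHCC97H those of the 2 minor arms did.

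The 5p arms made up 0.182% of miR-103a reads in MHCC97H (4 of 2197, 0.0496 to 0.466%) and 1.65% in HepG2 (2 of 121, 0.201 to 5.84%). The odds ratio of 0.109 had an interval of 0.0154 to 1.21. The guide arm thus took 99.8% of miR-103a reads in MHCC97H and 98.3% in HepG2. In MHCC97H, 100 other names had both arms listed and at least 100 reads in sum; their more abundant arm took a median of 94.4%, and in 5 of them it took as large a share as miR-103a-3p or larger. In HepG2, 22 names met this and had a median of 99.6%, with 15 at or above the share of miR-103a-3p. That share rests on 2 reads of the 5p arms, and its interval (94.2 to 99.8%) includes the median. At this depth the place of miR-103a-3p among the HepG2 names cannot be set against its place in MHCC97H.

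The miR-15/16 group, which restrains the cell cycle and BCL2, is related to miR-103 and miR-107 through the core AGCAGCA. The core starts at base 1 in miR-103a-3p and miR-107 and at base 2 in the miR-15/16 group, and is shown in capitals.
miR-103a-3p: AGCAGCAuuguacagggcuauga
miR-16-5p: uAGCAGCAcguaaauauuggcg
miR-15b-5p: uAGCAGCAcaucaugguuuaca
miR-15a-5p: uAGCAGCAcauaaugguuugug
miR-424-5p: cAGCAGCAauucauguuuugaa
The listed miRNAs with the core at base 2 were these 4, miR-195-5p and miR-497-5p. Of these 6, miR-497-5p (6.57 CPM in MHCC97H) did not reach 10 CPM and was not compared. Of the others, 2 were called higher in HepG2 and none in MHCC97H. Of all 543 miRNAs, 9.02% were called higher in HepG2 and 20.4% in MHCC97H. With library totals both guides of the family had ratios above 1, and miR-107 kept that under each scaling tried. miR-15b-5p had 913 CPM in MHCC97H (278 reads) and 13052 CPM in HepG2 (298 reads), and was 14.3-fold higher in HepG2 (12.1 to 16.9). miR-16-5p had 2523 CPM in MHCC97H (768 reads) and 7621 CPM in HepG2 (174 reads), and was 3.02-fold higher in HepG2 (2.55 to 3.57). miR-15a-5p had 154 CPM in MHCC97H and 350 CPM in HepG2, and its ratio of 0.44 had an interval of 0.206 to 1.08. miR-424-5p rested on 2 HepG2 reads, and miR-195-5p (8 reads in MHCC97H) and miR-497-5p (2 reads in MHCC97H) had none in HepG2. In sum the core at base 2 had 3675 CPM in MHCC97H and 21112 CPM in HepG2. In MHCC97H the sum of miR-103a-3p and miR-107 thus exceeded the sum of these 6, and in HepG2 it lay below it.

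Of the fixed list of the miR-15/16 group with both arms, 13 entries were listed and 11 reached 10 CPM. Of these, 1 was called higher in MHCC97H, 2 in HepG2 and 8 in neither direction, against 20.4% and 9.02% of all 543 called higher in MHCC97H and in HepG2. The call for MHCC97H was miR-16-2-3p, with 919 reads in MHCC97H and none in HepG2, and the exact interval of its ratio starts at 18.6. In MHCC97H it thus had more reads than miR-16-5p, which had 768. miR-15b-3p was not called (549 CPM in MHCC97H, 438 CPM in HepG2). The list's median log2 ratio was 1.79, against 1.12 over all 543 miRNAs. Of the 13 entries 6 had no HepG2 read, and there the log2 ratio rests on the pseudocount.

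**Figure D4:**
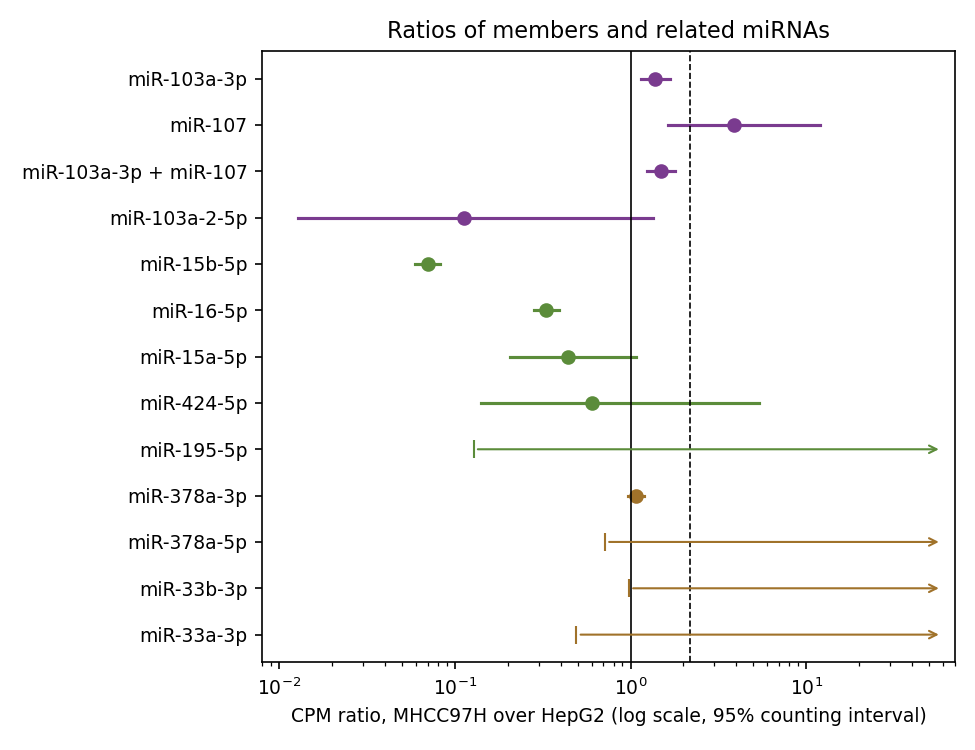
CPM ratio of MHCC97H over HepG2 (log axis) with 95% counting intervals for the miR-103 and miR-107 members (purple), the miR-15/16 group (green) and miRNAs in introns of other metabolic genes (brown). The solid line marks equal CPM and the dashed line the median ratio; arrows start at the lower end where HepG2 had no read. The miR-15b-5p and miR-16-5p intervals lie wholly below 1 and those of miR-103a-3p and miR-107 wholly above it with library totals, which for miR-103a-3p turned under 2 other scalings.

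Other miRNAs that lie in introns of metabolic genes gave no call. miR-378a-3p, from an intron of PPARGC1B, a coactivator of mitochondrial genes, had 18288 CPM in MHCC97H and 17038 CPM in HepG2, a ratio of 1.07 (0.968 to 1.19). Its level exceeded that of miR-103a-3p in both libraries. miR-378a-5p had 37 reads in MHCC97H and none in HepG2. miR-33a and miR-33b, which lie in introns of the sterol regulators SREBF2 and SREBF1 and repress cholesterol export, were scarce. miR-33b-3p had 50 reads and miR-33a-3p 26 in MHCC97H, and neither had a HepG2 read. Of the 5p arms, miR-33a-5p did not reach 10 CPM and had no HepG2 read, and that of miR-33b was not listed. Of the 5 entries of this list, 4 reached 10 CPM and none was called in either direction. Of all 543 miRNAs, 20.4% were called higher in MHCC97H and 9.02% in HepG2. With so few entries, the absence of calls does not set the list apart. The median log2 ratio of the 4 entries, 6.68, rests on the pseudocount, since 3 of them had no HepG2 read.

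In a list of other miRNAs linked to glucose and lipid metabolism, 22 of 23 entries reached 10 CPM, of which 1 was called higher in MHCC97H, 1 in HepG2 and 20 in neither, against 20.4% and 9.02% of all 543 called higher in MHCC97H and in HepG2. With library totals its most abundant members were close to level, as miR-103a-3p was, whereas median centring gave 6 calls for HepG2 in the list. miR-27b-3p had 27009 CPM in MHCC97H and 18878 CPM in HepG2, a ratio of 1.43 (1.30 to 1.58). miR-143-3p, which impairs insulin signaling in mouse liver, had 18167 CPM in MHCC97H and 20849 CPM in HepG2. The ratios of miR-29a-3p (1.11, 0.857 to 1.45) and miR-26b-5p (1.03, 0.794 to 1.36) were both near 1. The 2 called entries, named after their values were seen, were miR-27b-5p with 685 reads in MHCC97H and none in HepG2, and miR-29c-3p with 6 reads in MHCC97H and 3 in HepG2. The list's median log2 ratio was 0.51, against 1.12 over all 543 miRNAs.

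Of 10 entries of the other p53-induced miRNAs, 9 reached 10 CPM, and none of these was called higher in MHCC97H, 3 in HepG2 and 6 in neither, against 20.4% and 9.02% of all 543 called higher in MHCC97H and in HepG2. miR-192-5p was 4.48-fold higher in HepG2 (3.86 to 5.18) and miR-194-5p 11.7-fold (8.60 to 16.002), and both also stand in the hepatocyte marker list. The third was miR-145-5p, with 6 reads in MHCC97H and 3 in HepG2, named after its values were seen. miR-215-5p had 191 CPM in MHCC97H and 307 CPM in HepG2. miR-34a-5p, a main p53 target, had 17 reads in MHCC97H and 2 in HepG2, also named after its values were seen. The list's median log2 ratio was -1.31, against 1.12 over all 543 miRNAs.

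miR-103 and miR-107 are broadly expressed, also in blood cells. The summed level of 5 red cell marker entries was 12327 CPM in MHCC97H and 25316 CPM in HepG2, with miR-486-3p at 0 in HepG2. The 5 leukocyte entries summed to 2276 CPM in MHCC97H and 5212 CPM in HepG2, with none at 0. The 2 endothelial entries summed to 6507 CPM in MHCC97H and 7227 CPM in HepG2. The 10 stromal and smooth muscle entries summed to 24128 CPM in MHCC97H and 29959 CPM in HepG2. That sum counts both miR-199a-3p and miR-199b-3p, which had identical counts (754 reads in MHCC97H and 79 in HepG2). It may thus hold the same reads under 2 names. Of the 9 stromal and smooth muscle entries that reached 10 CPM, 2 were called higher in HepG2, none in MHCC97H and 7 in neither. Of all 543 miRNAs, 20.4% were called higher in MHCC97H and 9.02% in HepG2. The median log2 ratio of the stromal list was -0.90, against 1.12 over all 543 miRNAs. Within the red cell, leukocyte and endothelial lists the entries did not all lean one way. miR-451a had 2716 CPM in MHCC97H and 20104 CPM in HepG2, while miR-486-5p (ratio 1.98, 1.61 to 2.45) had more in MHCC97H with library totals but not after median centring, miR-144-3p (1.98, 0.827 to 6.20) and miR-144-5p (1.07, 0.667 to 1.84) were not called, and the red cell median log2 ratio was 0.98. Of the leukocyte entries miR-142-3p was called higher in HepG2 (191 CPM in MHCC97H, 2584 CPM in HepG2), and miR-142-5p, miR-150-5p and both miR-223 arms were called in neither direction. Of the endothelial pair miR-126-5p was called higher in HepG2, and miR-126-3p had a ratio of 1.04 (0.872 to 1.24). The part of these cell types in the levels of the family was not tested. The 10 hepatocyte entries summed to 32031 CPM in MHCC97H and 158600.1 CPM in HepG2. Most of the HepG2 sum was miR-148a-3p, with 26976 CPM in MHCC97H and 142438 CPM in HepG2. Of the 7 hepatocyte entries that reached 10 CPM, 1 was called higher in MHCC97H, 4 in HepG2 and 2 in neither. The shares over all 543 miRNAs were 20.4% for MHCC97H and 9.02% for HepG2. miR-122-5p had a ratio of 0.93 (0.614 to 1.48), and 4 of the 10 entries had no HepG2 read.

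The miRNAs most like each guide were found by the Euclidean distance of log2(CPM + 1) over the 2 libraries, among 156 other miRNAs with at least 5 reads in each. Nearest to miR-103a-3p were miR-106b-3p at a distance of 0.21, miR-126-3p at 0.29, miR-23a-3p at 0.33, miR-486-5p at 0.37 and miR-320a-3p at 0.59. Nearest to miR-107 were miR-361-3p at 0.07, miR-125a-5p at 0.26, miR-1180-3p at 0.40, miR-340-5p at 0.68 and miR-151a-5p at 0.81. miR-361-3p had 270 reads in MHCC97H and 5 in HepG2, almost the counts of miR-107. With 2 points per miRNA, such likeness describes these libraries only.

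The direction of miR-103a-3p depended on the scaling, and that of miR-107 did not. Over the 543 miRNAs the median log2 ratio was 1.12, so that miR-103a-3p, with a log2 ratio of 0.47, lay 0.65 below the median and miR-107, with 1.94, lay 0.83 above it. After median centring the ratio of miR-103a-3p was 0.64 (0.530 to 0.773), which is higher in HepG2. With totals that left out the 10 most abundant miRNAs of each library it was 0.87 (0.725 to 1.06). The ratio of miR-107 was 2.43 (1.03 to 7.55) with those totals, and 1.78 (0.752 to 5.52) after median centring, where its call was lost. Of all calls by size and interval, 69.4% were for MHCC97H with library totals, 49.7% without the most abundant miRNAs and 35.8% after median centring.

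**Figure D5:**
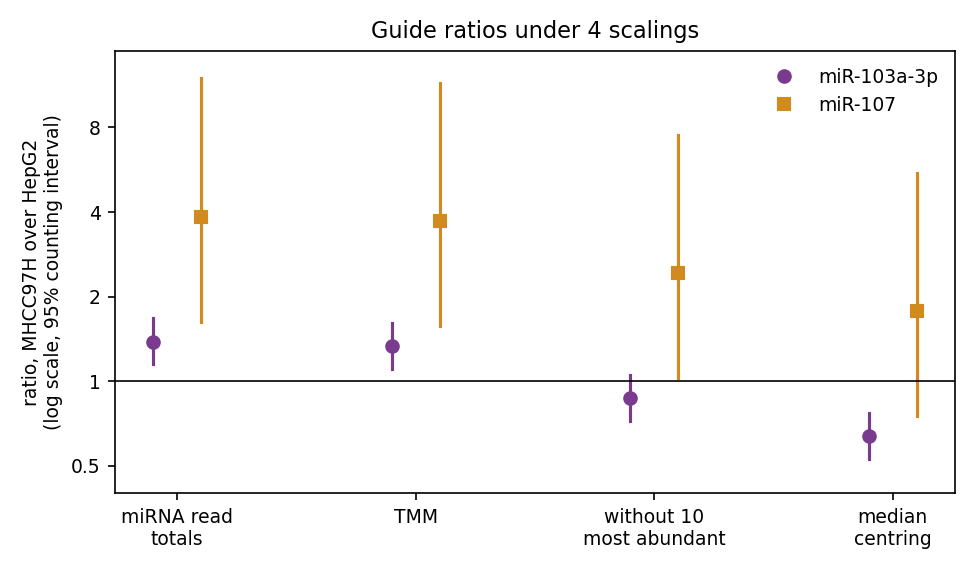
Ratio of MHCC97H over HepG2 for miR-103a-3p and miR-107 under 4 scalings (log axis, 95% counting intervals, 1 library per line): library totals, edgeR's trimmed mean of M-values (TMM), totals without the 10 most abundant miRNAs of each library, and median centring. miR-103a-3p lies on either side of 1, while the miR-107 estimate stays above it, with an interval that includes 1 after median centring.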

How the data were processed

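Per the file headers, the deposited table holds unnormalized counts of reads for each mature miRNA in both libraries. Trimming and alignment tools are named as cutadapt and Bowtie in the submitters' processing notes. The sources used here give no version of either, no genome build, no miRBase release and no number of mismatches allowed. The 915 entries hold 793 distinct names. A repeated name (78 names) was counted once at its highest count. No molecular identifiers are labelled, so PCR copies count as reads.

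CPM was computed from the 304457 (MHCC97H) and 22831 (HepG2) miRNA reads. Before log2 ratios were taken, 1 CPM was added as a pseudocount, and miRNAs below 10 CPM in both libraries were left out. A call required 2-fold or more and a 95% interval of the ratio, from the Clopper-Pearson interval of the split of the reads, that excluded 1. The procedure was run on simulated counts with counting error only, which does not cover variation between preparations. Alternatives changed repeats, scaling, pseudocount, filter, interval and fold.

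Named miRNAs were all members, up to 4 most abundant entries of each list, and the 5 nearest to each guide. Neighbors in rank, some list entries with no read in 1 library, and miR-223-5p were named too. Other names are marked or describe sequence relatives. Members and lists were chosen with earlier results of these data known. Sequences came from RefSeq (GRCh38.p14), where 704 of 793 names matched, and host introns from GENCODE release 29 (GRCh38). edgeR 4.0.16 under R 4.3.3 gave the TMM factors; everything else used scipy 1.17.1, pandas 2.3.3 and numpy 2.4.6 under Python 3.11.15.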

Additional observations from a re-analysis of the deposited data

How the results depend on the processing

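No paired analysis was possible because each line has 1 library. Median centring turned the log2 ratio of miR-103a-3p to -0.65 and the ratio of the summed guides to 0.68. Totals without the 10 most abundant miRNAs turned them to -0.20 and 0.93. Members called higher in MHCC97H, 1 as reported, were 0 after median centring and at 4-fold; members called higher in HepG2, 0 as reported, were 1 (miR-103a-2-5p, on 2 HepG2 reads) after median centring and without the most abundant miRNAs. With repeated entries summed, the miR-103a-3p share of both guides in MHCC97H was 94.5%, against 89.5%, since its reads then count double. Calls by size for MHCC97H, 281 as reported, were 531 with no filter and 154 at 100 CPM, and those for HepG2, 137 as reported, were 54 at 100 CPM. By size and interval, the 111 calls for MHCC97H were 54 after median centring and 72 without the most abundant miRNAs, and the 49 for HepG2 were 97 after median centring. HepG2 calls in the lists changed in some settings. After median centring there were 1 among miRNAs in introns of metabolic genes, 6 in the glucose and lipid list and 5 in the p53 list. The glucose and lipid list had 2 with repeats summed, with TMM and without the most abundant miRNAs, and 0 with a 99% interval. The miR-15/16 list, with 2 as reported, had 1 at 4-fold and 3 with repeats summed, after median centring and without the most abundant miRNAs. Apart from the construction of each alternative, the cause was not tested. HepG2 depth limits every statement on miR-107 and the 5p arms, since 1 read there is 43.8 CPM.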
